A study of Mus musculus with 8 samples.

Results

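The genes described here load and present peptides on MHC class II, the surface complex with which dendritic cells (DCs) show antigen to CD4+ T cells. The list held 9 genes: *H2-Aa*, *H2-Ab1* and *H2-Eb1*, which encode chains of the class II molecules I-A and I-E; *Cd74*, which encodes the invariant chain; *H2-DMa*, *H2-DMb1* and *H2-Oa*, which encode chains of the peptide-exchange molecule H2-DM and of its inhibitor H2-O; *Ifi30*, which encodes the lysosomal thiol reductase GILT; and *Ciita*, which encodes the master coactivator of class II transcription. A gene was measured where a probe set carried its symbol and no other. By that rule 8 of the 9 genes were measured, through 16 probe sets of 45037 tested, and each gene is given by its brightest probe set. *H2-DMb1* had no probe set of its own, because both probe sets that name it also name its neighbour *H2-DMb2*.

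Bone marrow of female BALB/c mice, 6 weeks old per the methods, was grown for 9 days in GM-CSF, at 200 U/mL per the labels, and the cells so obtained are called bone marrow-derived DCs (BMDCs). They were treated with [BF/S+L/Ep], a butanol fraction of stem and leaf of Echinacea purpurea, at 75 µg/mL, or with the vehicle DMSO at 0.1%, for 4 h or 12 h. Each of the 4 groups had 2 Affymetrix mouse arrays, 8 in all. The study calls the duplicates biological sample replicates, but which mice or cultures they came from was not given, so p-values measure the spread between these arrays. There was no untreated group and no maturation stimulus, so a change between 4 h and 12 h is a change of cells that stayed in culture with extract or with vehicle.

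Invariant chain escorts new class II molecules to the endosome and blocks their groove. Proteases then trim it to a short peptide, which H2-DM exchanges for antigenic peptide, while H2-O holds H2-DM back. Immature DCs make and recycle class II steadily, and mature DCs shut down *Ciita* and keep the class II molecules they have on the surface. Transcription of these genes needs short promoter elements, the X box and, downstream of it, the Y box, which bind the RFX and NF-Y factors on which CIITA assembles.

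Of the measured list, *H2-Aa*, *H2-Ab1*, *H2-Eb1*, *H2-DMa* and *H2-Oa* lie with *H2-DMb1* in 1 region of chromosome 17, in the RefSeq order *H2-Oa*, *Brd2*, *H2-DMa*, *H2-DMb2*, *H2-DMb1*, *Psmb9*, *Tap1*, *Psmb8*, *Tap2*, *H2-Ob*, *H2-Ab1*, *H2-Aa*, *H2-Eb1*, *H2-Eb2*. RefSeq promoter windows of 300 bases were at hand for 6 of the 9 genes (assembly GRCm38.p6, from C57BL/6J, whereas the cells came from BALB/c). In 4 of the 6 genes, *H2-Aa*, *H2-Eb1*, *H2-DMb1* and *H2-Oa*, the letters GNAAC stood 30 or 31 bases before the letters TGATTGG on the strand of the gene. Both strings were chosen after the class II windows had been read, N stands for any base, both strands were searched, and the strings did not overlap each other. Over all 32851 windows, TGATTGG was found in 7.82%, GNAAC in 84.8%, and GNAAC 15 to 40 bases before TGATTGG in 0.682%. The windows of *H2-DMa* and *Ifi30* held no TGATTGG. The stretches are shown because these genes are the ones whose signals are followed below, and capitals mark GNAAC and TGATTGG:
H2-Aa, chr17:34287853-34287912, minus strand: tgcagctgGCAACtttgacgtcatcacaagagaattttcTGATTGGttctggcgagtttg
H2-Eb1, chr17:34305768-34305826, plus strand: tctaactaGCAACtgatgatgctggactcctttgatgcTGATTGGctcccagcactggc
H2-Oa, chr17:34092295-34092354, plus strand: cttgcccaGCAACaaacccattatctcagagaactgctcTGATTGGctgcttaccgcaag
H2-DMb1, chr17:34153089-34153148, plus strand: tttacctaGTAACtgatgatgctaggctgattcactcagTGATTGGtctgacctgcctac

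All 8 measured genes were above background on every array. As background served 83 probe sets of smell and taste receptor genes (olfactory, vomeronasal, taste), whose 95th percentile was between 66.7 and 107 signal units on the 8 arrays. The signals are MAS5 values scaled so that the mean of each array, without its highest and lowest 2%, was 500.

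The 4 genes for the class II chains and the invariant chain were among the brightest probe sets of the arrays and hardly varied. *H2-Aa* (1435290_x_at), the alpha chain of I-A, gave 52567 and 54212 in DMSO at 4 h, 55759 and 51353 in [BF/S+L/Ep] at 4 h, 49544 and 53835 in DMSO at 12 h, and 47015 and 50956 in [BF/S+L/Ep] at 12 h. *H2-Ab1* (1450648_s_at), the beta chain of I-A, gave 40311 and 38952, 44123 and 40315, 37741 and 40952, and 38422 and 38355 for these groups in turn. *H2-Eb1* (1417025_at), the beta chain of I-E, gave 38791 and 40153, 40907 and 37836, 38075 and 38612, and 37599 and 37832. *Cd74* (1425519_a_at) gave 52674 and 54435, 57297 and 50510, 53340 and 53539, and 50036 and 50378. In *H2-Aa*, *H2-Eb1* and *Cd74* the highest reading was from a [BF/S+L/Ep] array at 4 h and the lowest from one at 12 h. The DMSO readings of these genes lay between them. The lowest *H2-Ab1* reading was from DMSO at 12 h. The highest array of each of these 4 genes was [BF/S+L/Ep] 4 h replicate 1. In *H2-Aa*, *H2-Eb1* and *Cd74* its partner at 4 h was below both DMSO arrays at 4 h. In *H2-Ab1* the partner was above both, at 40315 against 40311 for the nearer.

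Over the 8 arrays the highest signal exceeded the lowest by 1.19-fold for *H2-Aa*, 1.17-fold for *H2-Ab1*, 1.15-fold for *Cd74* and 1.09-fold for *H2-Eb1*. Over the 19021 probe sets above background on every array the median of this ratio was 1.58, and over the 203 probe sets with a mean signal over 30000 it was 1.24. These signals stand near the top of the measuring range: the brightest probe set of each array read between 63008 and 72771, and *Cd74* ranked between 11 and 17 from the top on every array. A rank is a place in the array's range and not an amount of RNA. Whether the top of the range flattens differences was not tested.

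The other 4 genes lay lower in the range, and 3 of them varied more. *Ifi30* (1422476_at), the thiol reductase that unfolds antigen for loading, gave 17691 and 19132 in DMSO at 4 h, 18114 and 18497 in [BF/S+L/Ep] at 4 h, 17398 and 17923 in DMSO at 12 h, and 17728 and 16205 in [BF/S+L/Ep] at 12 h. *H2-DMa* (1422527_at), the alpha chain of the peptide exchanger, gave 11459 and 11373, 11551 and 10874, 7405 and 11218, and 8647 and 8534. At 12 h, 3 of the 4 *H2-DMa* readings were far below every reading at 4 h, and DMSO 12 h replicate 2 was within the range of the 4 h readings. DMSO 12 h replicate 1, the lowest *H2-DMa* reading, was also the array with the highest background (107) and the highest median signal (104), and the part of this in the reading was not tested.

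*H2-Oa* (1419297_at), the alpha chain of the H2-DM inhibitor, gave 513 and 482 in DMSO at 4 h, 515 and 571 in [BF/S+L/Ep] at 4 h, 500 and 462 in DMSO at 12 h, and 596 and 699 in [BF/S+L/Ep] at 12 h. The 2 highest *H2-Oa* readings were those of [BF/S+L/Ep] at 12 h. *Ciita* (1421210_at) gave 609 and 510, 628 and 760, 573 and 596, and 694 and 677 for these groups in turn. All 4 *Ciita* readings with [BF/S+L/Ep] were above all 4 with DMSO, with 609 and 628 as the nearest pair.

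**Figure D1:**
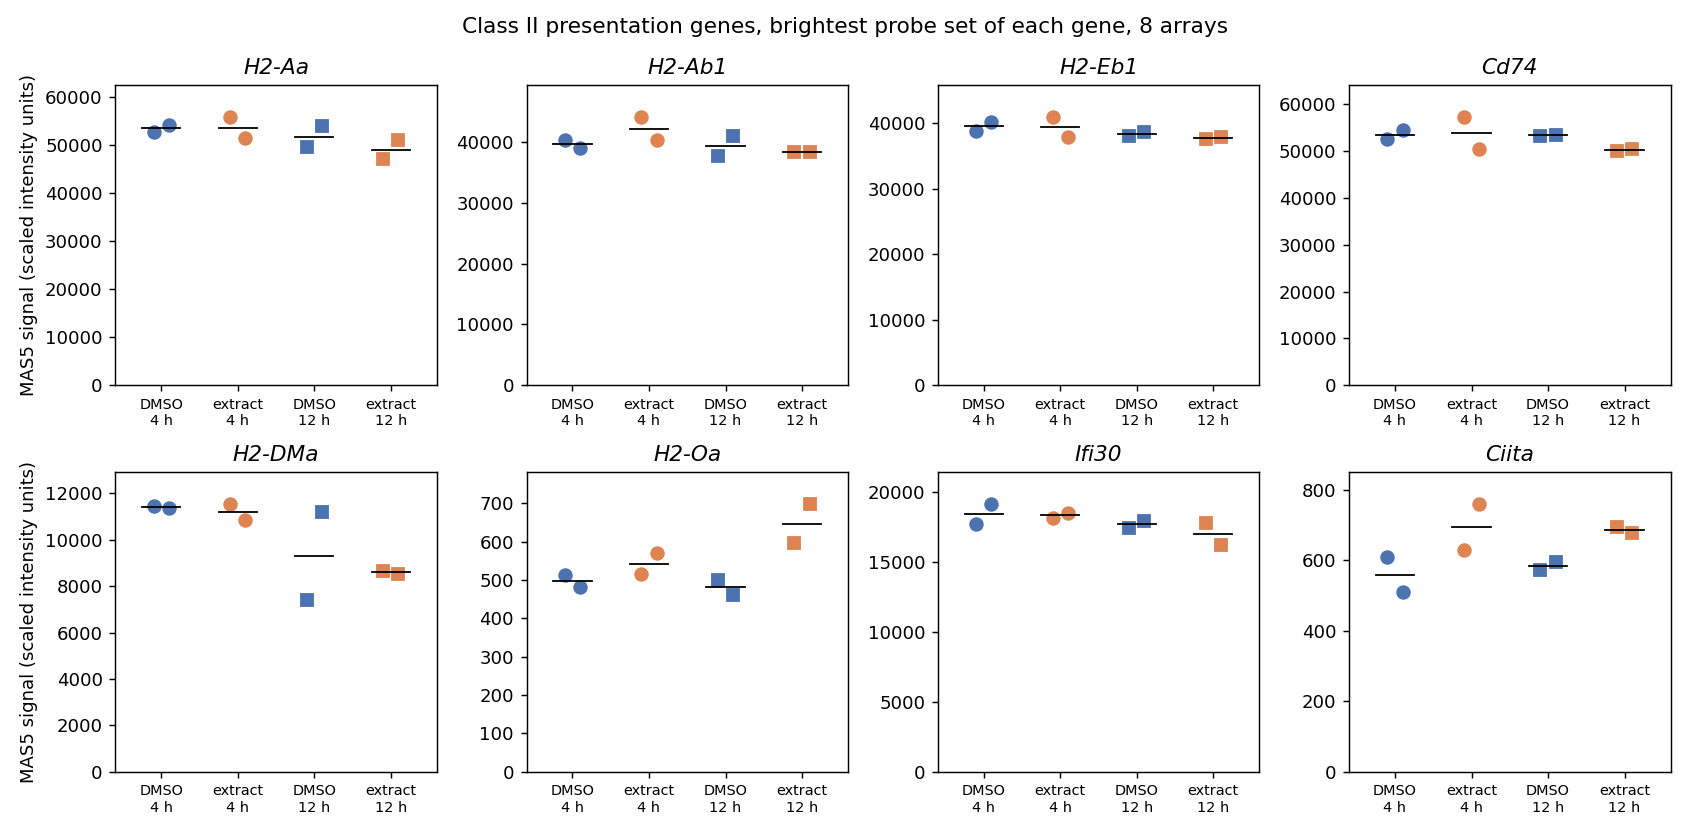
MAS5 signal (linear axis from 0) of the 8 measured genes on the 8 arrays, with 2 arrays per group as points and the group mean as a line; "extract" is [BF/S+L/Ep]. The top row is level across the groups, *H2-DMa* has 3 low readings at 12 h, and *Ciita* is higher with [BF/S+L/Ep] at both times.

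None of the 8 genes passed the test for treatment. The comparison asks whether [BF/S+L/Ep] changed the class II genes at 4 h, at 12 h, over both times, or differently at the 2 times. With limma on log2 signals, adjusted over all 45037 probe sets, 0 of 8 passed an adjusted p of 0.05 at 4 h, where 0.00444% of all probe sets passed, and 0 of 8 at 12 h, where 0.02% did. Likewise 0 of 8 passed for the average over both times (0.107% of all) and 0 of 8 for the difference between the times (0% of all). At an unadjusted limma p under 0.05 the numbers were 0 of 8 at 4 h (4.97% of all probe sets), 1 of 8 at 12 h (*H2-Oa*; 5.96% of all), 2 of 8 for the average (*H2-Oa* and *Ciita*; 7.08% of all) and 0 of 8 for the difference (3.66% of all). With so few of all probe sets passing, a count of 0 of 8 is close to the background.

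For the class II chains and invariant chain the estimates lay near 0, with intervals that describe the signal at the bright end of the range given above. At 12 h, *H2-Eb1* changed by -0.02 ± 0.11 on the log2 scale (standard error, 2 arrays per group), with a 95% interval from -0.25 to 0.21. *H2-Aa* changed by -0.08 ± 0.11, with an interval from -0.32 to 0.17. *H2-Ab1* changed by -0.03 ± 0.11 (-0.27 to 0.20) and *Cd74* by -0.09 ± 0.11 (-0.33 to 0.15). For these 4 genes the intervals reached at most a fold of 0.793 on the low side, that of *Cd74*. At 4 h the 4 estimates lay between 0.00 and 0.09, and the widest upper bound was 0.33, that of *H2-Ab1*. The 203 probe sets with a mean signal over 30000 had a median change of -0.04 at 4 h and -0.14 at 12 h, so the small negative estimates of the bright class II genes at 12 h were not below those of other bright probe sets. *Ifi30* changed by -0.01 ± 0.10 at 4 h and by -0.06 ± 0.10 at 12 h. *H2-DMa* changed by -0.03 ± 0.15 and -0.09 ± 0.15, and its estimate at 12 h depended on the 2 DMSO arrays, at -0.39 without DMSO 12 h replicate 1 and 0.21 without DMSO 12 h replicate 2.

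**Figure D2:**
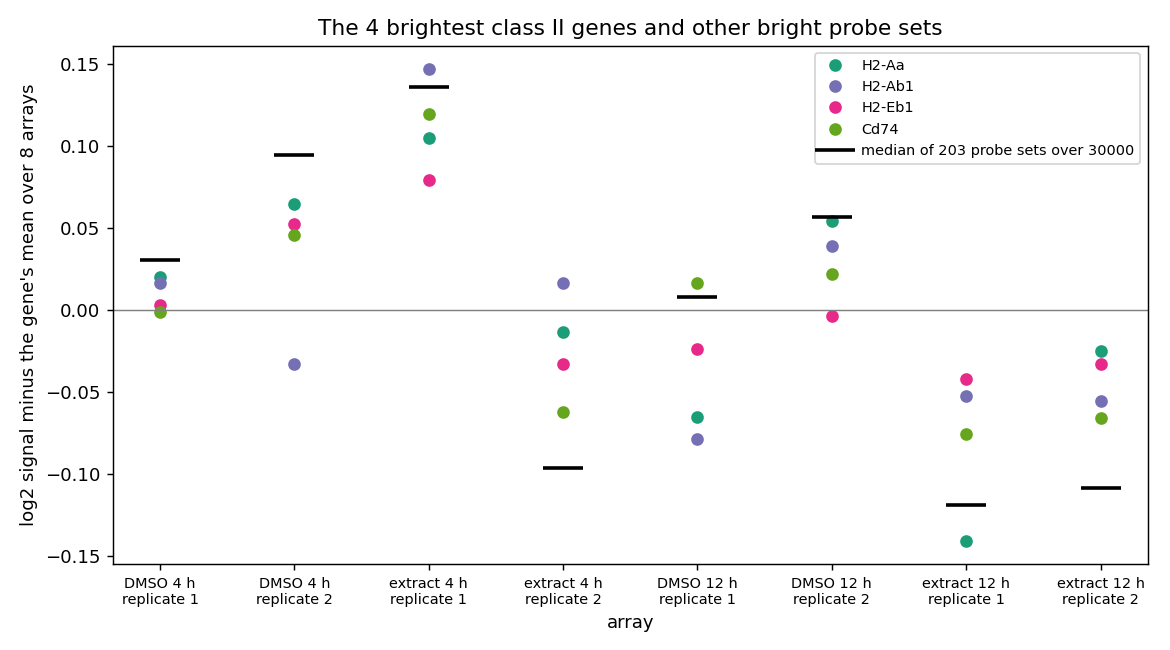
Log2 signal minus the gene's mean over the 8 arrays, for *H2-Aa*, *H2-Ab1*, *H2-Eb1* and *Cd74* (points) on each array, and the median of the same quantity over the 203 probe sets with a mean signal over 30000 (bars). The bar is highest at 0.14 in [BF/S+L/Ep] 4 h replicate 1 and lowest at -0.12 in [BF/S+L/Ep] 12 h replicate 1, and the points are on the same side of 0 as the bar on those 2 arrays.

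By the brightest probe set of each gene, *H2-Oa* and *Ciita* had the largest treatment estimates of the list. *H2-Oa* changed by 0.13 ± 0.16 at 4 h and 0.42 ± 0.16 at 12 h (95% interval at 12 h from 0.07 to 0.78; limma adjusted p = 0.76), or 0.27 ± 0.11 averaged over both times (adjusted p = 0.67). *Ciita* changed by 0.31 ± 0.16 at 4 h (interval from -0.04 to 0.66) and 0.23 ± 0.16 at 12 h (-0.12 to 0.58), or 0.27 ± 0.11 on average (adjusted p = 0.67). In each of these 2 genes both treated arrays were above both control arrays at 4 h and at 12 h, which was so for 2 of 8 genes of the list and for 4.65% of the 23336 probe sets above background on at least 4 arrays. Only this direction, that of the 2 genes, was counted, and the share lower at both times was not. At 4 h the nearest *H2-Oa* readings were 515 with [BF/S+L/Ep] and 513 with DMSO. The *H2-Oa* estimate at 12 h exceeded that at 4 h by 0.30 ± 0.23 (interval from -0.20 to 0.80), a difference that did not pass.

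**Figure D3:**
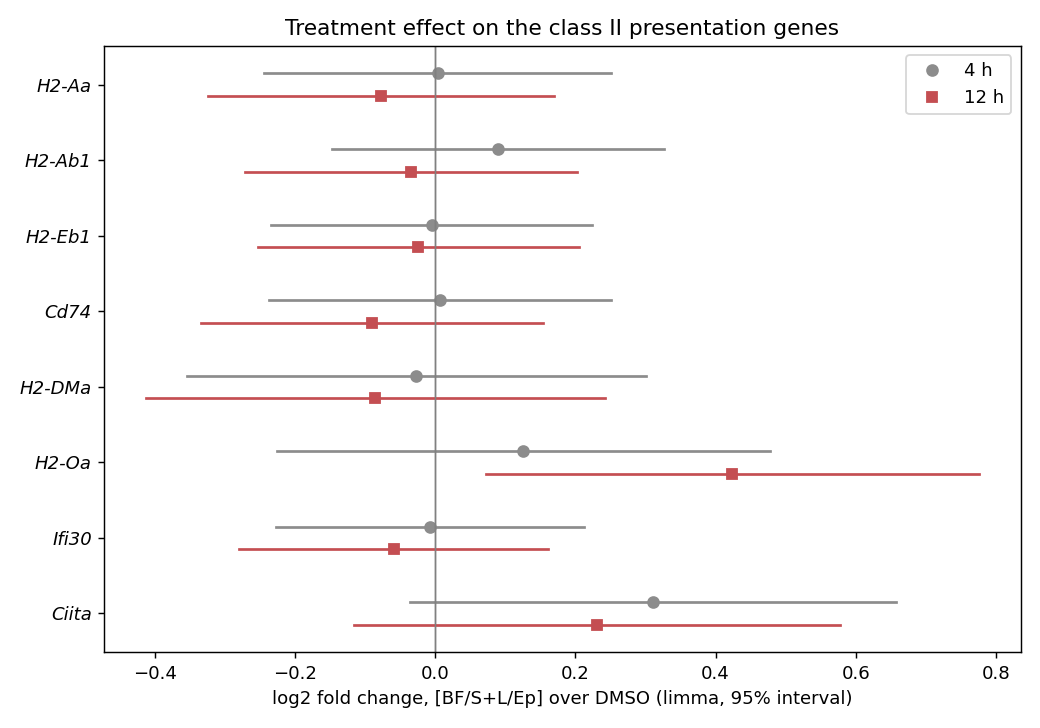
Log2 fold change of [BF/S+L/Ep] over DMSO at 4 h (circles) and 12 h (squares) for the 8 measured genes, with 95% limma intervals. The intervals of *H2-Aa*, *H2-Ab1*, *H2-Eb1*, *Cd74* and *Ifi30* reach no further than -0.33 and 0.33, and the interval of *H2-Oa* at 12 h is the only one that does not reach 0.

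Where groups did not overlap, the genes fell on both sides. At 4 h, 3 of 8 genes were higher on both treated arrays than on both control arrays (*H2-Ab1*, *H2-Oa* and *Ciita*), against 16.1% of all probe sets above background on at least 4 arrays, and 0 of 8 were lower, against 16.3%. At 12 h, 2 of 8 were higher (*H2-Oa* and *Ciita*; 17.5% of all) and 2 of 8 lower (*H2-Eb1* and *Cd74*; 19.1% of all).

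Other probe sets of the same genes differed in part from the brightest one. *H2-Aa* had 4 probe sets, of which the brightest had treatment estimates of 0.00 ± 0.11 at 4 h and -0.08 ± 0.11 at 12 h. The 2 other bright ones, 1452431_s_at and 1438858_x_at, changed with treatment by -0.05 ± 0.11 and -0.13 ± 0.11 at 12 h, the latter without overlap. The dim one, 1443783_x_at, with signals from 627 to 998, far below the top of the range, changed by -0.23 ± 0.19 at 4 h, without overlap, and by -0.09 ± 0.19 at 12 h. It varied 1.59-fold over the 8 arrays and changed over time in [BF/S+L/Ep] by 0.18 ± 0.19, where the brightest changed by -0.13 ± 0.11. *H2-Ab1* had 3, and its other 2 changed by 0.00 ± 0.11 and -0.09 ± 0.11 at 12 h. In Affymetrix naming a probe set ending in _x_at holds probes that can match other sequences and one ending in _s_at is shared by related transcripts, so such a signal can include RNA of a similar gene.

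*H2-DMa* had a dimmer probe set, 1459872_x_at, that differed from the brighter one under treatment. It gave 641 and 715 in DMSO at 4 h, 584 and 509 in [BF/S+L/Ep] at 4 h, 532 and 477 in DMSO at 12 h, and 419 and 403 in [BF/S+L/Ep] at 12 h. Both treated arrays were below both control arrays at each time, by -0.31 ± 0.16 at 4 h and -0.29 ± 0.16 at 12 h. Averaged over both times the change was -0.30 ± 0.12 (limma adjusted p = 0.62). In size it was larger than those of the brightest *H2-Oa* and *Ciita* probe sets. It was smaller than that of the *Ciita* probe set 1421211_a_at (0.37 ± 0.18, limma adjusted p = 0.72).

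The 2 other probe sets of *Ciita* were above DMSO without overlap at 12 h but not at 4 h. Probe set 1421211_a_at gave 359 and 275 in DMSO at 4 h, 309 and 466 in [BF/S+L/Ep] at 4 h, 185 and 216 in DMSO at 12 h, and 297 and 262 in [BF/S+L/Ep] at 12 h. Its treatment estimates were 0.27 ± 0.26 at 4 h and 0.48 ± 0.26 at 12 h. For 1447075_at they were -0.06 ± 0.31 and 0.44 ± 0.31. None of these passed (smallest limma adjusted p = 0.88 among the 3 *Ciita* probe sets at 12 h). *Ciita* is known to be transcribed from several promoters, and which transcripts each probe set reads was not given.

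Between 4 h and 12 h none of the 8 genes passed either, and only a small share of all probe sets did. In DMSO, 0 of 8 passed, against 2.1% of all probe sets and 4.68% of the 19021 above background on every array. In [BF/S+L/Ep], 0 of 8 passed, against 2.86% and 6.35%. At these shares a count of 0 of 8 is close to the background in both arms. At an unadjusted limma p under 0.05 the numbers were 0 of 8 in DMSO (12.4% of all probe sets) and 1 of 8 in [BF/S+L/Ep] (*H2-DMa*; 13.8% of all). The median change of the 8 genes was -0.04 in DMSO and -0.11 in [BF/S+L/Ep], where the medians over all probe sets above background on every array were both 0.01.

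The chains of class II and invariant chain changed between the times by -0.05 ± 0.11 (*H2-Aa*), -0.01 ± 0.11 (*H2-Ab1*), -0.04 ± 0.11 (*H2-Eb1*) and 0.00 ± 0.11 (*Cd74*) in DMSO. With [BF/S+L/Ep] they changed by -0.13, -0.14, -0.06 and -0.10, each with the same error, where the 203 probe sets over 30000 had a median of -0.14. *Ciita* changed by 0.07 ± 0.16 in DMSO and -0.01 ± 0.16 in [BF/S+L/Ep]. Its probe set 1421211_a_at had estimates of -0.65 ± 0.26 and -0.44 ± 0.26, neither of which passed (limma adjusted p = 0.30 and 0.50).

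*H2-DMa* was the gene of the list with the largest estimate over time, -0.32 ± 0.15 in DMSO (95% interval from -0.65 to 0.00; limma adjusted p = 0.41) and -0.38 ± 0.15 in [BF/S+L/Ep] (-0.71 to -0.06; adjusted p = 0.26). Its dimmer probe set, 1459872_x_at, changed by -0.43 ± 0.16 and -0.41 ± 0.16 (limma adjusted p = 0.28 and 0.27). In both probe sets and both arms the 12 h arrays were below the 4 h arrays. The DMSO estimate of the brighter probe set depended on 2 arrays that differed: without DMSO 12 h replicate 2 it was -0.62 and passed (limma adjusted p = 0.044), without DMSO 12 h replicate 1 it was -0.03, and over all 17 alternatives the adjusted p ran from 0.044 to 0.97.

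By overlap alone, 0 of 8 genes were higher at 12 h in DMSO (26.1% of all probe sets above background on at least 4 arrays) and 2 of 8 lower (*H2-Eb1* and *H2-DMa*; 23.2%). In [BF/S+L/Ep], 1 of 8 was higher (*H2-Oa*; 26.4%) and 6 of 8 lower (23.8%), namely *H2-Aa*, *H2-Ab1*, *H2-Eb1*, *H2-DMa*, *Cd74* and *Ifi30*. That count depended on scaling: after quantile normalization 2 of 8 did not overlap in place of 7. With each array centred on its median it stayed at 7. Apart from *H2-DMa*, the estimates of these 6 genes were between -0.14 and -0.06.

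*H2-DMb1* could be seen only together with *H2-DMb2*, the other gene for a beta chain of H2-DM. The shared probe set 1449580_s_at gave 8442 and 7703 in DMSO at 4 h, 8261 and 9775 in [BF/S+L/Ep] at 4 h, 6178 and 7055 in DMSO at 12 h, and 5901 and 8033 in [BF/S+L/Ep] at 12 h. It changed over time by -0.29 ± 0.14 and -0.38 ± 0.14, and the other shared probe set, 1418638_at, by -0.33 ± 0.14 and -0.36 ± 0.14 (DMSO and [BF/S+L/Ep]). Neither passed in either arm (smallest limma adjusted p = 0.22), and neither passed for treatment, with estimates of 0.16 ± 0.14 and 0.11 ± 0.14 at 4 h.

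*H2-DMb2* itself fell. Its brightest probe set, 1443687_x_at, gave 5382 and 5626 in DMSO at 4 h, 4809 and 4162 in [BF/S+L/Ep] at 4 h, 2143 and 2029 in DMSO at 12 h, and 1841 and 2111 in [BF/S+L/Ep] at 12 h. All 4 readings at 12 h were below all 4 at 4 h, by -1.40 ± 0.11 in DMSO (limma adjusted p = 1.8e-05) and -1.18 ± 0.11 in [BF/S+L/Ep] (adjusted p = 7.1e-05). A further probe set, 1443686_at, passed in both arms (-1.05 ± 0.11 and -0.94 ± 0.11), and 1419744_at did not (-0.91 ± 0.24 and -0.88 ± 0.24; adjusted p = 0.083 in each). The call of 1443687_x_at held without each array in turn and was lost when the variance was moderated without its trend on intensity (adjusted p = 0.12 and 0.16). The estimates of the shared probe sets lay between those of *H2-DMb2* and 0, and how much of their signal came from *H2-DMb1* was not tested. The promoter window of *H2-Ob* held GNAAC 28 bases before TGATTGG, and that of *H2-Eb2* 30 bases before it. *H2-Ob* changed over time by -1.03 ± 0.26 in DMSO and -0.68 ± 0.26 in [BF/S+L/Ep], and neither passed (limma adjusted p = 0.062 and 0.24). *H2-Eb2* gave signals from 17.9 to 138, above background on 4 arrays. At 12 h it gave 118 and 138 in DMSO, and 37 and 17.9 in [BF/S+L/Ep], the latter below background. Its treatment estimates were 0.47 ± 0.64 at 4 h and -2.31 ± 0.64 at 12 h, and neither passed (limma adjusted p = 0.52 at 12 h). Whether the letters GNAAC and TGATTGG bear on the changes over time was not tested. The stretch of the *H2-DMb2* promoter that lines up at TGATTGG with that of *H2-DMb1* above had 51 of 60 letters the same and 9 different, with no GNAAC at the place where *H2-DMb1* has it:
H2-DMb2, chr17:34145118-34145177, plus strand: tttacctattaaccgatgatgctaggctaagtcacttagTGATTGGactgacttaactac

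**Figure D4:**
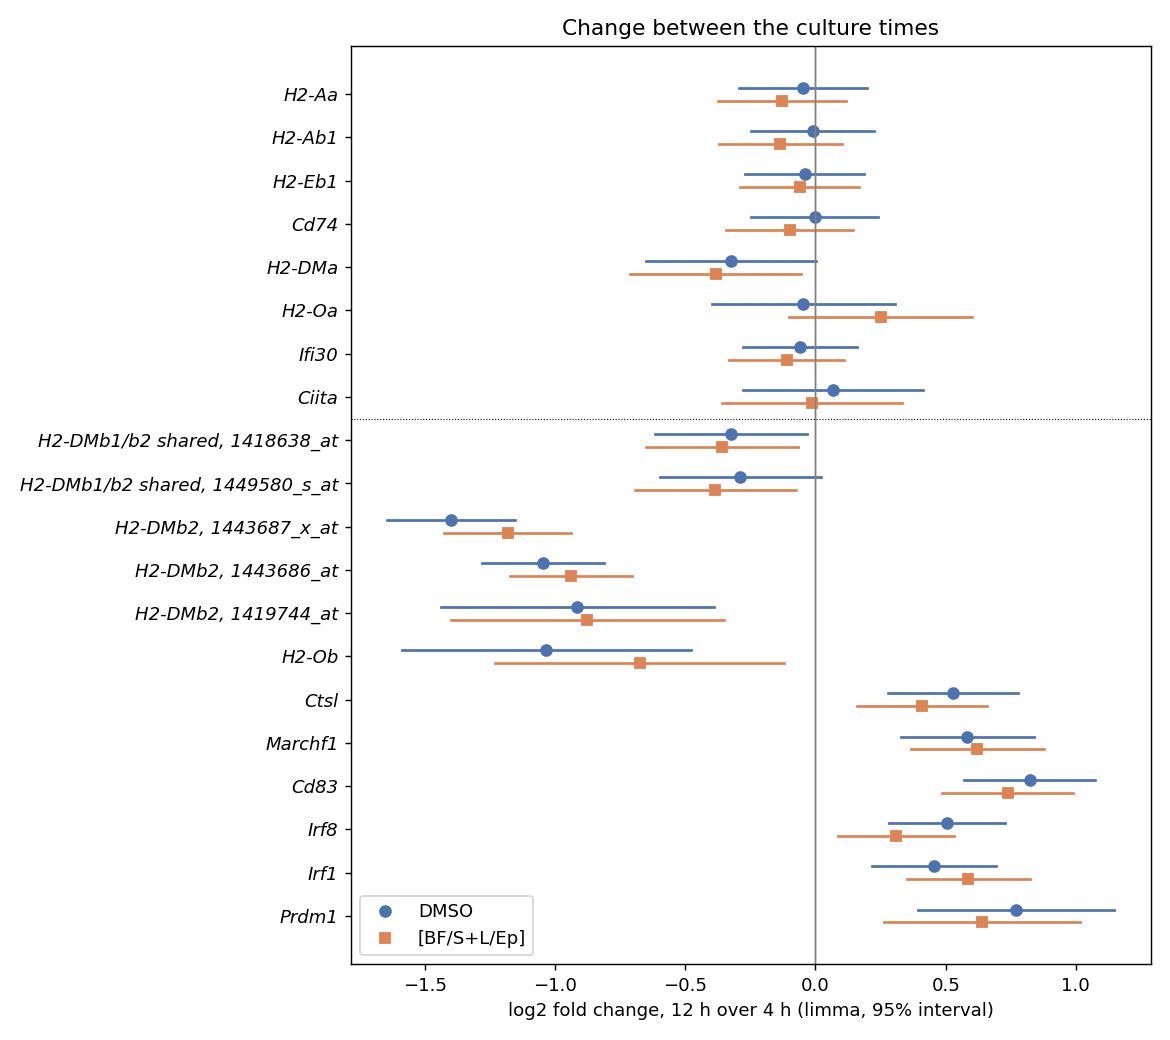
Log2 fold change between 12 h and 4 h in DMSO (circles) and [BF/S+L/Ep] (squares), with 95% limma intervals, for the 8 measured genes above the dotted line and, below it, the probe sets shared by *H2-DMb1* and *H2-DMb2*, those of *H2-DMb2* alone and 7 other genes of the pathway. The estimates of the 8 genes run from -0.38 to 0.25, those of *H2-DMb2* from -1.40 to -0.88, and *Cd83*, *Marchf1* and *Ctsl* lie above 0.

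Of 49 measured genes in 7 other lists (the class II locus and pathway, class I presentation, and maturation), 0 passed for treatment at 4 h, at 12 h, on average or for the difference. At an unadjusted limma p under 0.05 the numbers were 6, 5, 7 and 1 of 49, where 4.97%, 5.96%, 7.08% and 3.66% of all probe sets did so. Over time 9 of the 49 passed in DMSO, where 2.1% of all probe sets and 4.68% of those above background on every array passed, and 7 in [BF/S+L/Ep], where 2.86% and 6.35% did. These shares are the background for each list below, and the lists were chosen with earlier results known. Of the 4 other genes of the locus, 1 fell in each arm (*H2-DMb2*). *H2-Ob*, the beta chain of H2-O, gave 300 and 312 in DMSO at 4 h against 160 and 140 at 12 h, a change of -1.03 ± 0.26 that did not pass (limma adjusted p = 0.062). *H2-Ea*, the partner chain of *H2-Eb1*, was as bright and as level as the presentation genes, with signals from 41139 to 45565. Of the 7 factors that bind the X and Y boxes, such as *Rfx5* and *Nfya*, 0 rose and 0 fell in either arm. At an unadjusted limma p under 0.05 the number was 1 of 7 in each arm.

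Of the 3 genes that govern class II at the surface, 2 rose in both arms. *Marchf8*, the other of the 3, passed in neither arm. Its means at 4 h and 12 h were 1911 and 1380 in DMSO, and 1625 and 1368 in [BF/S+L/Ep]. *Marchf1*, the ubiquitin ligase that marks class II for degradation, gave 1161 and 1125 in DMSO at 4 h, 1488 and 1296 in [BF/S+L/Ep] at 4 h, 1629 and 1797 in DMSO at 12 h, and 2180 and 2094 in [BF/S+L/Ep] at 12 h. It rose by 0.58 ± 0.12 in DMSO (limma adjusted p = 0.022) and by 0.62 ± 0.12 in [BF/S+L/Ep] (adjusted p = 0.012). A dimmer *Marchf1* probe set, 1440209_at, did not pass in DMSO (0.53 ± 0.15, limma adjusted p = 0.099). In [BF/S+L/Ep] it passed (0.82 ± 0.15, limma adjusted p = 0.0078). Under treatment the brightest *Marchf1* probe set changed by 0.28 ± 0.12 at 4 h and 0.32 ± 0.12 at 12 h, both without overlap. Averaged over both times it changed by 0.30 ± 0.08 (limma adjusted p = 0.40) and the dimmer one by 0.29 ± 0.10 (limma adjusted p = 0.58). The averages of the 2 other genes were below 0, and 0 of the 3 genes passed. *Cd83*, which opposes that ligase, gave 9443 and 8191, 8519 and 7655, 14493 and 16680, and 12843 and 14146, and rose by 0.82 ± 0.12 (adjusted p = 0.0019) and 0.74 ± 0.12 (adjusted p = 0.0036). The call of the brightest *Marchf1* probe set was lost without any 1 of the 4 DMSO arrays in the DMSO arm (adjusted p up to 0.19). In the other arm it was lost when [BF/S+L/Ep] 4 h replicate 2 or either [BF/S+L/Ep] 12 h array was left out (up to 0.12). The *Cd83* call was lost without DMSO 4 h replicate 2 (0.066) in the one and without [BF/S+L/Ep] 12 h replicate 2 (0.056) in the other.

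Of the 8 endosomal proteases and cystatin C, 1 rose in DMSO and 0 in [BF/S+L/Ep]. That gene was *Ctsl*, cathepsin L, which trims invariant chain in some cell types (0.53 ± 0.12, limma adjusted p = 0.032, and 0.41 ± 0.12, adjusted p = 0.089). Of the 10 measured genes upstream of *Ciita*, 2 rose in DMSO. These were *Irf8*, a factor of DC development (0.50 ± 0.10, adjusted p = 0.022), and *Prdm1*, which encodes Blimp-1, a repressor of *Ciita* (0.77 ± 0.17, adjusted p = 0.039). In [BF/S+L/Ep], 1 of the 10 rose: *Irf1*, an interferon-induced activator (0.59 ± 0.11, adjusted p = 0.011). In the other arm of each the estimates were 0.31 ± 0.10 for *Irf8*, 0.64 ± 0.17 for *Prdm1* and 0.46 ± 0.11 for *Irf1*, so no difference between the arms is shown. A dimmer *Irf8* probe set, 1448452_at, changed over time in DMSO by 0.40 ± 0.12 and did not pass (limma adjusted p = 0.13). Under treatment it changed by 0.46 ± 0.12 at 4 h and 0.47 ± 0.12 at 12 h, both without overlap. Its average over both times was 0.46 ± 0.08 (limma adjusted p = 0.075). The brighter *Irf8* probe set changed under treatment by 0.23 ± 0.10 and 0.03 ± 0.10. The calls of *Ctsl* and *Irf8* were lost without any 1 of the 4 DMSO arrays (adjusted p up to 0.34 and 0.18), and that of *Ctsl* also without either [BF/S+L/Ep] 12 h array. The *Prdm1* call was lost without any 1 array except DMSO 4 h replicate 2 and [BF/S+L/Ep] 4 h replicate 2 (up to 0.29), and the *Irf1* call when either [BF/S+L/Ep] 12 h array or the first [BF/S+L/Ep] 4 h array was left out (up to 0.088). Of 9 MHC class I presentation genes 0 passed in either arm (2 and 3 of 9 at an unadjusted limma p under 0.05), and of 8 costimulation and maturation genes 3 rose in each arm (*Cd40*, *Cd274* and *Fscn1*). Their calls in DMSO were lost without DMSO 4 h replicate 2 for all 3 genes, without DMSO 4 h replicate 1 or DMSO 12 h replicate 2 for *Cd40* and *Cd274*, and without DMSO 12 h replicate 1 for *Cd274*. In [BF/S+L/Ep], *Fscn1* passed without each array in turn, *Cd40* was lost without 2 arrays ([BF/S+L/Ep] 4 h replicate 1 and 12 h replicate 2), and *Cd274* without any 1 array except [BF/S+L/Ep] 4 h replicate 2 and DMSO 12 h replicate 2.

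Markers of the cells that could be in the culture were read on the same arrays. All 5 dendritic cell markers and all 6 measured macrophage markers were above background on at least 4 arrays. Between 4 h and 12 h, 2 of the 6 macrophage markers rose in both arms, *Adgre1* (1.16 ± 0.14 and 1.26 ± 0.14) and *C1qa* (0.44 ± 0.10 and 0.46 ± 0.10), and 0 fell. *Fcgr1* had estimates of -0.31 ± 0.12 and -0.27 ± 0.12 and *Csf1r*, the brightest of them, -0.03 ± 0.11 and 0.04 ± 0.11, and neither passed. *Mertk* did not pass either, with means at 4 h and 12 h of 667 and 1016 in DMSO, and 551 and 757 in [BF/S+L/Ep]. Of the 5 dendritic cell markers 1 rose in both arms, the factor *Zbtb46* (0.78 ± 0.14 and 0.70 ± 0.14), and 0 fell. *Itgax*, which makes up most of that list's signal, had estimates of -0.38 ± 0.10 and -0.35 ± 0.10 that did not pass (limma adjusted p = 0.083 and 0.10). The call of *Adgre1* held without each array in turn, and those of *C1qa* and *Zbtb46* were lost without any 1 of the 4 arrays of the arm, that of *C1qa* in DMSO also without either [BF/S+L/Ep] 12 h array. For treatment averaged over both times, 0 of the 6 macrophage and 0 of the 5 dendritic cell markers passed (0.107% of all probe sets). At an unadjusted limma p under 0.05 the numbers were 2 of 6 and 1 of 5 (7.08% of all). The summed signal of the macrophage list was 54340 to 55432 in DMSO at 4 h, 50096 to 53572 in [BF/S+L/Ep] at 4 h, 57562 to 58424 in DMSO at 12 h and 55035 to 58308 in [BF/S+L/Ep] at 12 h. That of the dendritic cell list was 21977 to 22843, 22102 to 22131, 17112 to 18900 and 18612 to 18899. The part of these marker changes in the changes over time given above was not tested, and in bulk RNA a change in the number of cells of a type and in the RNA per cell cannot be told apart. Of the 5 measured B cell markers, another class II-bearing cell type, 0 were above background on 4 arrays, and 3 were above it on none. On at least 4 arrays, 3 of 5 plasmacytoid DC, 2 of 6 neutrophil, 1 of 6 T and NK cell and 0 of 5 mast cell markers were above it. Over time in [BF/S+L/Ep], 1 plasmacytoid DC marker rose, *Ccr9* (limma adjusted p = 0.0091), and the 4 others had lower estimates. The *Ccr9* means at 4 h and 12 h were 183 and 521 in [BF/S+L/Ep], and 217 and 438 in DMSO. No difference between the arms is shown by this. In [BF/S+L/Ep], 1 T and NK cell marker also rose over time, *Cd8a* (limma adjusted p = 0.043), and the 5 others were above background on no array. The *Cd8a* means at 4 h and 12 h were 94.8 and 282 in [BF/S+L/Ep], and 143 and 225 in DMSO. In DMSO, 0 markers of these 4 further lists passed. How those calls depend on single arrays was not tested.

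The genes whose signals ran most nearly with the mean of *H2-Aa*, *H2-Ab1*, *H2-Eb1* and *Cd74* over the 8 arrays were *D8Ertd738e* (r = 0.99), *Rpl6* (0.97), *Gm9776* (0.97), *Tmem209* (0.96) and *Litaf* (0.95), of 9446 genes compared. *Rpl6*, a ribosomal protein gene, had a mean signal of 31607 and a highest-to-lowest ratio of 1.19. Within the list, *H2-Eb1* and *Cd74* ran closest together (r = 0.92 over 8 arrays), and *H2-Oa* ran against *Cd74* (r = -0.69) and with *Ciita* (r = 0.69). These values describe 8 arrays that share 1 scaling each, and the mean of the 4 genes moved over them by no more than -0.08 to 0.11 on the log2 scale.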

How the data were processed

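Each of the 8 arrays (Affymetrix Mouse Genome 430 2.0) was deposited as MAS5 signal intensities, on a linear scale, which the authors scaled to a trimmed mean of about 500 per array; no version of MAS5 was given in the sources used here. Of 45101 probe sets, 64 controls were left out. Symbols came from the platform annotation: 34945 of 45037 probe sets had 1 symbol, 932 several and 9160 none. Log2 of the deposited signal was fitted in limma 3.58.1 (R 4.3.3) as 4 group means over all 8 arrays, with a variance trend on intensity (residual df 4, prior df 8.833), two-sided, with Benjamini-Hochberg adjustment over 45037 probe sets. The number of arrays limits the precision. The script was tested on simulated data.

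The genes and lists were chosen with earlier results of these data known. All members are named; from 7 other pathway lists, genes that passed or were brightest; and the 5 genes most like the class II chains. The methods give 1000 U/mL GM-CSF and 7 µg RNA, the labels 200 U/mL and 10 µg. Alternatives were quantile normalization, median centring, log2(signal + 50), a background filter, other moderation, a replicate block, single-contrast fits, each array left out and probe set means. Promoter windows came from RefSeq, GRCm38.p6. Figures were drawn with matplotlib 3.10.9.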

Additional observations from a re-analysis of the deposited data

How the results depend on the processing

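The count of 0 of 8 presentation genes held under every alternative run for the 4 treatment comparisons and for time in [BF/S+L/Ep]; for time in DMSO it ran from 0 to 1 when 1 array was left out, the 1 being *H2-DMa* without DMSO 12 h replicate 2. All 8 genes stayed above background under the 4 other references and scalings and without each array, the last an alternative added after the data were seen. Of 800 single values of these genes, 63 took the other sign, none of them a call, and the largest shift was 0.31 on the log2 scale. The number of genes whose groups did not overlap was also counted after quantile normalization and with each array centred on its median. For treatment at 4 h it went from 3 to 4 under both. For treatment at 12 h it went from 4 to 2 with centring. Over time in DMSO it went from 2 to 1 (quantile normalization) and to 0 (centring). Over time in [BF/S+L/Ep] it went from 7 to 2 with quantile normalization and stayed at 7 with centring. With the replicate number as a block (replicate block), 0 of 8 genes passed in each of the 6 comparisons, and the calls over all probe sets went from 2 to 4 at 4 h. Correlations between the deviations of same-numbered arrays ran from -0.03 to 0.11 over the 6 pairs of groups, so the numbers were not taken to pair the arrays. Averaged over its 3 probe sets, 1 of them dim, *Marchf1* changed by -0.041 in place of 0.62 over time in [BF/S+L/Ep], and *Ctsl*, averaged with a second probe set at background level, by -0.67 in place of 0.41; for *Ctsl* neither value was a call. Without the intensity trend no probe set at all passed in any comparison by limma. The calls over time that the text names by gene outside the presentation genes were also read with each array centred on its median. Each gene was read at its brightest probe set. Those of *H2-DMb2* and *Adgre1* in both arms and of *Fscn1* in [BF/S+L/Ep] held. Those of *Marchf1*, *Cd83*, *Ctsl*, *Irf8*, *Prdm1*, *Irf1*, *Cd40*, *Cd274*, *Zbtb46*, *C1qa* and, in DMSO, *Fscn1* were lost. Alternatives for these genes were added after the data were seen. The median standard error over the probe sets above background on every array was 0.18 for a comparison of 2 groups.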
